A study of Arabidopsis thaliana with 32 samples.

Results

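The change in translational efficiency of Arabidopsis thaliana shoots after 1 day without magnesium was measured with 12 of the 24 libraries that have counts. It was taken per gene as an interaction on the log2 scale: the difference in ribosome-bound RNA between plants without magnesium and control plants, minus the same difference in total RNA. A positive interaction means that more of a transcript was recovered with tagged ribosomes, relative to its amount in total RNA, without magnesium than in control plants. Counts are scaled per library, so the value is relative to other genes. It does not count the ribosomes on each transcript. The 12 libraries fall into 4 groups of 3, chosen by their labels alone, and all genes that passed a filter on low counts were tested, which left 19341. Another 8 samples labelled as removed, 4 of them from shoots, were not analysed here.

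All plants carried the transgene p35S:HF-RPL18, in which the 35S promoter drives a tagged ribosomal protein L18, and ribosomes holding that protein were captured by its tag (TRAP, translating ribosome affinity purification). The plants grew in hydroponic culture for 6 weeks under 10 h of light and 14 h of dark, before bolting. They then spent 1 day in medium in which sodium sulfate took the place of magnesium sulfate (MgD) or in normal medium (CK). The groups were Shoot TRAP MgD and Shoot TRAP CK for ribosome-bound RNA, and Shoot Total MgD and Shoot Total CK for RNA extracted with TRIzol, and the tissue is labelled rosette leaf. The tagged protein joins the endogenous one in a share of ribosomes, so TRAP RNA reports the cells and ribosomes in which the 35S promoter is active. In such bulk samples, fewer cells of a type and less RNA per cell cannot be told apart.

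Magnesium holds ribosomal RNA and the ribosomal subunits in their working shape, is the counter-ion of ATP, and sits at the centre of chlorophyll. In leaves its loss is known to lead to sugar accumulation and, later, to yellowing. Translational efficiency is a ratio, so it can change through the ribosome-bound pool, through the total pool, or through both.

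The libraries held between 16589101 and 41472378 counts. Pearson correlations of log2 CPM (counts scaled to library size) within a group lay between 0.9745 and 0.9889, and no library repeated another of its group, with a chi-square per degree of freedom of at least 12.4. Genes of the photosystems and light harvesting took 10.9% to 14.6% of the counts of each library, and 11 root marker genes took 0.00397% to 0.00986%, values that fit the leaf label, with overlapping ranges between media and none of the 11 at 0 throughout. Most of the root marker share was PYK10, at 39.1 to 101 CPM. The file names of every shoot TRAP library carry another lane label than those of the shoot total libraries, so RNA type and lane cannot be told apart, whereas MgD and CK share a label within each RNA type. RPL18 encodes the tagged protein, and reads of the transgene and of the plant's own gene are not separated. It had 24400, 28600 and 28300 CPM in TRAP MgD and 33100, 30200 and 26900 CPM in TRAP CK. In total RNA it had 1750, 1940 and 1830 CPM under MgD and 2100, 1960 and 1800 CPM under CK, and its interaction was -0.06 ± 0.16 (edgeR estimate ± SE).

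The submitters' list of libraries gives each one an original number, and the numbers kept differ between groups. Shoot TRAP MgD holds numbers 2, 3 and 4, Shoot TRAP CK holds 1, 2 and 3, Shoot Total MgD holds 1, 2 and 4, and Shoot Total CK holds 2, 3 and 4. TRAP and total libraries of the same number therefore exist for numbers 2 and 4 under MgD and for numbers 2 and 3 under CK. Libraries that share a number deviated together from their group means across genes, as did some libraries of different numbers. Values from a fit that sets TRAP against total within number and treatment are given below as same-number values. That fit has 2 residual degrees of freedom, against 8 in the fit without numbers, and rests on 2 pairs under MgD and 2 under CK.

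No gene passed an adjusted p of 0.05 for the interaction (edgeR quasi-likelihood test with Benjamini-Hochberg adjustment, 0 of 19341 genes, 0%). Without adjustment, 764 genes (3.95%) had a p under 0.05, fewer than the 967 that 5% of the tested genes would give. Of these, 422 (2.18%) had a positive and 342 (1.77%) a negative interaction. DESeq2 also called 0 genes, with 829 of 23259 below 0.05 before adjustment, and limma on log2(TPM + 1), where TPM is a length-scaled abundance, called 0 with 743. When TRAP RNA was set against total RNA inside each medium, edgeR called 8863 genes (45.8%) under MgD and 8678 genes (44.9%) under CK. Ratios of TRAP to total RNA thus differed among genes in both media, while no change of a ratio between media passed the test. For MgD against CK within an RNA type, edgeR called 0 genes in TRAP RNA and 0 in total RNA. Groups described below as higher, lower or separate between media are therefore descriptive.

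The size of change that these libraries allow can be read from the intervals. The interaction had a median of 0.02 over all genes, with quartiles of -0.17 and 0.19 and a median SE of 0.24. Scaling between libraries sets the typical change near 0, so a change shared by most genes would not show here. For 12954 genes (67%) the 95% interval of the interaction lay wholly within a 2-fold change in either direction. Among the 15966 genes with an average log2 CPM of at least 1, this held for 12933 (81%). An interaction beyond 2-fold was estimated for 901 genes, of which 116 were at or above that abundance. For most genes a change of more than 2-fold, relative to other genes, thus lay outside the interval.

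**Figure D1:**
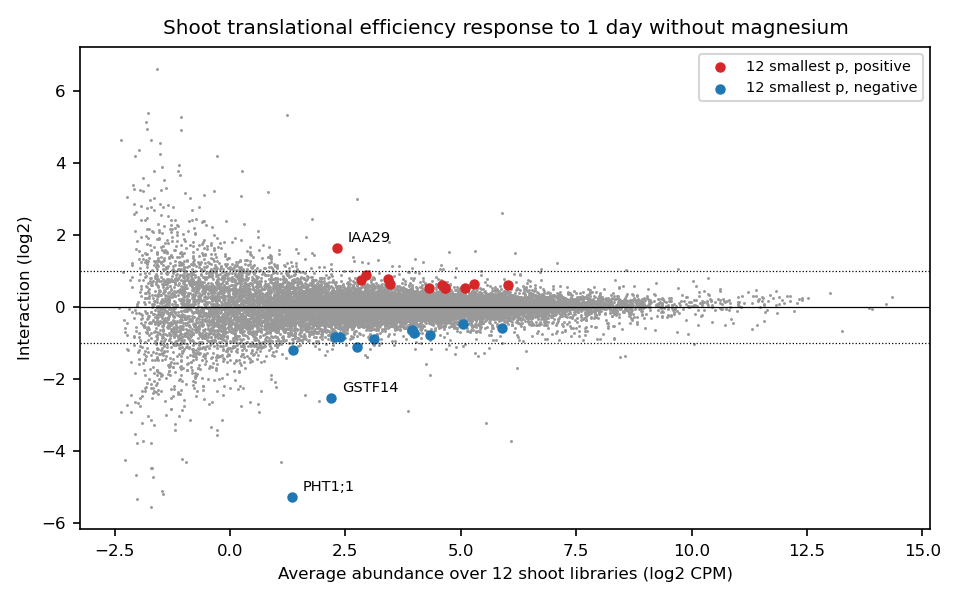
Interaction (log2, vertical axis) against the average abundance of each gene over the 12 shoot libraries (log2 CPM, horizontal axis) for all 19341 tested genes in grey, with the 12 smallest unadjusted p-values in each direction in red (positive) and blue (negative). Dotted lines mark a 2-fold change. The cloud narrows as abundance grows, and no gene passed the adjusted threshold.

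IAA29 had the smallest unadjusted p of the positive interactions among genes with a symbol and an average log2 CPM of at least 1, the set from which the genes below were taken. It encodes an Aux/IAA protein, a repressor of auxin-responsive transcription that is also induced by shade and warmth through PIF transcription factors. It had 5.96, 11.1 and 7.03 CPM in TRAP MgD and 2.95, 4.64 and 6.57 CPM in TRAP CK. In total RNA it had 1.91, 2.69 and 2.69 CPM under MgD and 3.49, 4.95 and 4.78 CPM under CK. The total RNA groups did not overlap and were lower under MgD. The TRAP groups overlapped, with 2 of the 3 MgD libraries above all CK libraries. The interaction was 1.63 ± 0.42 (95% interval 0.75 to 2.51, unadjusted p = 0.00122, edgeR adjusted p = 1). The log2 ratio of TRAP to total RNA was 1.72 ± 0.30 under MgD and 0.09 ± 0.29 under CK. Among libraries of the same number it was 1.15 and 1.38 under MgD and 0.41 and 0.41 under CK, and the same-number interaction was 0.85. In TPM, IAA29 averaged 9.58 ± 2.9 in TRAP MgD and 5.70 ± 2.4 in TRAP CK, and 2.83 ± 0.43 in Total MgD and 4.88 ± 0.84 in Total CK (SD, n = 3 each).

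The stretch around the start codon bears on how well a scanning ribosome starts there, and it is shown here for the genes with the 2 smallest p-values in each direction and for DR4, described further on. Each line gives the 12 bases before the coding start, the ATG in capitals and the 9 bases after it, on the coding strand, from RefSeq's TAIR10.1 assembly. The build behind the deposited counts is not stated, but 99.3% of the gene lengths implied by the deposited tables equal those of this annotation within 0.1%.
IAA29, chr4:15583467-15583490, plus strand: gctgccttagaaATGgagttggat
PS1, chr1:2771337-2771360, minus strand: aaatcgataacgATGgagtctagt
ER-ANT1, chr5:5730093-5730116, minus strand: agggaaaagaggATGgctttgatc
DFD, chr3:20636773-20636896, plus strand, spliced across an intron: tgttcttcttctATGgcaactgaa
DR4, chr1:27569640-27569663, minus strand: aaagaaacaatcATGaaggccacc
A purine stands at position -3, counted from the A of the ATG, in 4 of these 5 sequences, against 74.2% of 18372 tested genes with such a stretch. The 5' leaders of 4 of the 5 hold at least 1 further ATG upstream of the start, as do 62.1% of those genes. The median interaction was 0.021 for 8976 genes with A at -3, 0.017 for 4660 with G, and 0.008 for 4736 with C or T. The median SE of 0.24 is that of a single gene and does not measure the error of such medians. Their differences were not tested.

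The other positive interactions with the smallest p-values were smaller, and most had higher TRAP values under MgD. PS1, a presenilin, had 34.8, 34.5 and 41.3 CPM in TRAP MgD and 28.3, 24.8 and 26.1 CPM in TRAP CK, with no overlap. Its total RNA values of 42.4, 49.0 and 40.8 CPM under MgD and 54.1, 43.7 and 48.5 CPM under CK overlapped. Its interaction was 0.63 ± 0.16 (edgeR unadjusted p = 0.00126, adjusted p = 1), and the same-number value was 0.70. ESP1, which resembles CstF64 factors of messenger RNA 3' end formation, had 27.1, 28.0 and 29.3 CPM in TRAP MgD and 20.5, 20 and 24.7 CPM in TRAP CK, and an interaction of 0.62 ± 0.17. TCP14, a transcription factor of the TCP family, had 78.3, 76.8 and 79.6 CPM in TRAP MgD and 47.5, 57.0 and 64.4 CPM in TRAP CK. The TRAP values of both genes were separate between media, while their total RNA values overlapped. The interaction of TCP14 was 0.60 ± 0.18, and its same-number value was 0.29.

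WAKL6, a wall-associated kinase-like protein, had 10.3, 8.92 and 9.41 CPM in TRAP MgD and 6.01, 5.65 and 6.65 CPM in TRAP CK. Its interaction was 0.90 ± 0.28 and 0.80 in same-number pairs. PRORP2, a protein-only RNase P that trims the 5' end of transfer RNA, had 6.26, 7.20 and 6.97 CPM in TRAP MgD and 5.78, 6.05 and 4.79 CPM in TRAP CK. In total RNA it had 5.79, 7.28 and 7.02 CPM under MgD and 7.98, 10.8 and 8.86 CPM under CK. Both RNA types were thus separate between media for PRORP2 and in opposite directions, and its interaction was 0.76 ± 0.24. PHB4, a mitochondrial prohibitin, had an interaction of 0.54 ± 0.16. GIP1, a partner of G-box binding factors, had 0.53 ± 0.16, with TRAP values above and total values below CK in every MgD library. PRA1.B6, a prenylated Rab acceptor, had 0.77 ± 0.24. CIPK15, a kinase that works with calcineurin B-like calcium sensors, had 0.54 ± 0.18. U1A, a protein of the U1 splicing particle, had 0.53 ± 0.17, and HOL2, a methyltransferase, had 0.64 ± 0.21. Of these 12 genes, 10 had TRAP values above CK in every MgD library and 4 had total RNA values below CK in every MgD library. They were chosen for a small p from these same values, so such separation is partly built in. The share of all genes with such separation was not counted. By edgeR, 2.18% of all genes had an unadjusted p under 0.05 in this direction.

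ER-ANT1, which carries adenine nucleotides across the endoplasmic reticulum membrane, had the smallest p of the negative interactions. It had 5.28, 6.46 and 5.68 CPM in TRAP MgD and 9.37, 7.87 and 7.30 CPM in TRAP CK. Its total RNA gave 14.1, 11.0 and 10.1 CPM under MgD and 9.63, 9.52 and 7.75 CPM under CK. The groups were separate in both RNA types, lower under MgD in TRAP RNA and higher under MgD in total RNA. The interaction was -0.88 ± 0.24 (95% interval -1.39 to -0.38, edgeR unadjusted p = 0.00178, adjusted p = 1), and the same-number value was -0.61.

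UGT76C1, which glucosylates cytokinins, showed the same arrangement. It had between 15 and 16.1 CPM in TRAP MgD and between 17.6 and 22.0 CPM in TRAP CK, and 16.6, 13.2 and 13.5 CPM in Total MgD and 11.4, 11.3 and 12.3 CPM in Total CK. Its interaction was -0.63 ± 0.18 and the same-number value -0.48. DFD, a cytosolic folylpolyglutamate synthetase, differed mostly in total RNA, with 28.0, 24.5 and 26.1 CPM under MgD and 22.1, 19.0 and 16.1 CPM under CK. Its TRAP values were 8.02, 8.18 and 8.37 CPM under MgD and 11.1, 10.0 and 8.03 CPM under CK, which overlapped, and the interaction was -0.71 ± 0.20.

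5PTASE11, an inositol polyphosphate 5-phosphatase, was the lowest in counts of the other negative genes with detected TRAP RNA in all libraries. It had 1.81, 1.66 and 1.96 CPM in TRAP MgD and 4.07, 3.16 and 3.00 CPM in TRAP CK, and an interaction of -1.2 ± 0.39. KT2/3, a potassium channel found in the phloem, had 64.5, 53.5 and 50.9 CPM in TRAP MgD and 88.0, 69.9 and 69.1 CPM in TRAP CK. Its total RNA overlapped between media, and its interaction was -0.58 ± 0.19 and -0.23 in same-number pairs. BRG3, of a family linked to resistance against Botrytis, had -0.47 ± 0.16. PFC1, a ribosomal RNA dimethylase of chloroplasts, had -0.83 ± 0.28, with total RNA higher in every MgD library, and ABCB14, an ABC transporter, had -1.11 ± 0.38. SECA2, a motor of protein export into chloroplast membranes, had -0.82 ± 0.28, and MPK5, a mitogen-activated protein kinase, had -0.78 ± 0.27. GSTF14, a glutathione transferase, and PHT1;1, a phosphate transporter, also ranked among the 12. They are named without a fold, since GSTF14 had 0 counts in 2 of the TRAP MgD libraries and at most 0.243 CPM in any TRAP library, and PHT1;1 had 0 in all TRAP MgD libraries and in 1 TRAP CK library. Of the 12, 8 had TRAP values below CK in every MgD library and 5 had total RNA values above CK in every MgD library. Without GSTF14 and PHT1;1, 7 of 10 had such TRAP values. All were chosen for a small p from these same values, so such separation is partly built in. Its share over all genes was not counted. By edgeR, 1.77% of all genes had an unadjusted p under 0.05 in this direction.

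**Figure D2:**
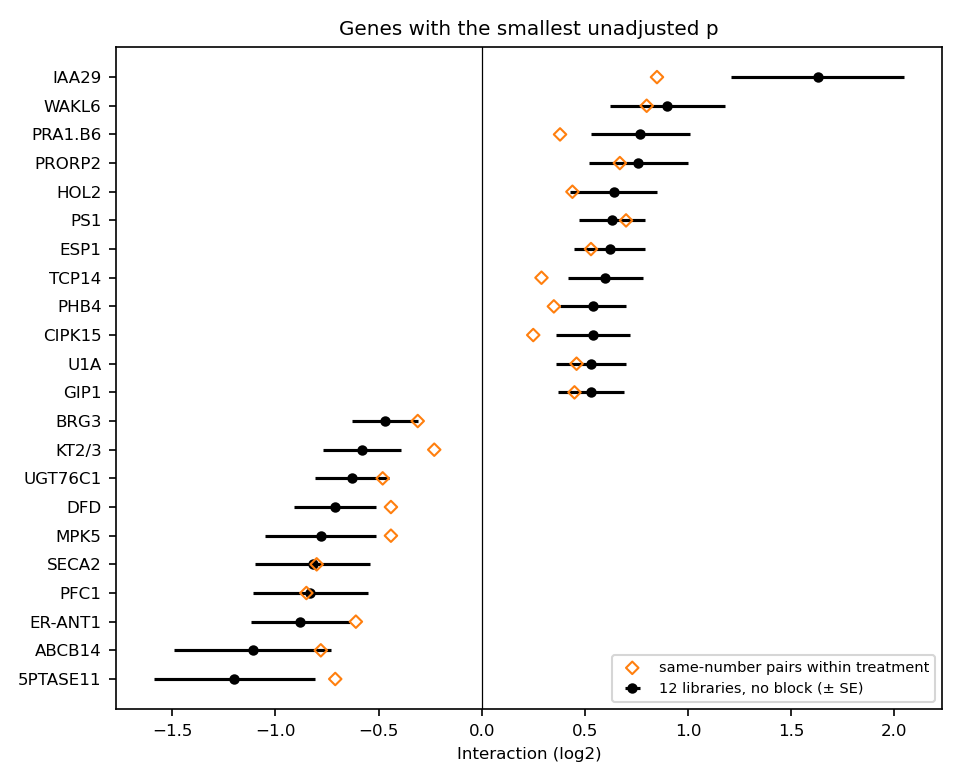
Interaction (log2) of 22 of the 24 genes with the smallest unadjusted p in each direction, without GSTF14 and PHT1;1, whose TRAP counts are at or near 0. Filled points with bars are edgeR estimates ± SE from the 12 libraries with no block, and open diamonds are the same-number values, which have no bar. The diamonds lie on the same side of 0 as the points, at 0.25 to 0.85 for the positive genes and at -0.85 to -0.23 for the negative ones.

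With TRAP set against total RNA within number and treatment, edgeR called 3 genes of 19341 (0.0155%), of which 2 had a positive and 1 a negative interaction. DR4 (drought-repressed 4), annotated as similar to plant protease inhibitors, was the first of them. It had 173, 88.9 and 200 CPM in TRAP MgD, for numbers 2, 3 and 4, and 144, 68.1 and 59.6 CPM in TRAP CK, for numbers 1, 2 and 3. Its total RNA gave 37.0, 77.9 and 68.0 CPM under MgD, for numbers 1, 2 and 4, and 43.3, 42.8 and 93.2 CPM under CK, for numbers 2, 3 and 4. The groups overlapped in both RNA types, and the highest library of each group exceeded its lowest more than 2-fold. The interaction with no block was 0.73 ± 0.71 (edgeR adjusted p = 1). Within a number, the log2 ratio of TRAP to total RNA was 1.15 and 1.55 under MgD and 0.65 and 0.48 under CK, and both MgD pairs lay above both CK pairs. The same-number interaction was 0.79, with an edgeR adjusted p of 0.0162. Limma on log2(TPM + 1) in the same layout gave 0.74 with an adjusted p of 0.00959, and DESeq2 gave 0.78 with an adjusted p of 0.282, so the call depends on the tool. These 2 fits were chosen after seeing the data. The pairing by number, on which the edgeR same-number fit rests too, was itself taken up because of correlations in these data. That layout leaves 2 residual degrees of freedom.

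The chloroplast-encoded ATCG01020 was the second, with 2.49, 1.75 and 2.60 CPM in TRAP MgD and 1.30, 1.18 and 0.933 CPM in TRAP CK. Its total RNA had 1640, 1400 and 1860 CPM under MgD and 1360, 2110 and 1680 CPM under CK. The TRAP groups were separate, at a level far below that of total RNA, with log2 ratios of TRAP to total RNA of -9.13 and -9.49 in the MgD pairs and -10.18 and -11.14 in the CK pairs. The tagged ribosomes are cytosolic, and the chloroplast-encoded genes together took 0.00342% to 0.0104% of the counts in TRAP libraries and 3.92% to 5.42% in total libraries, so this value describes the small remainder of such RNA in TRAP libraries. Its interaction was 1.06 ± 0.28 with no block and 1.33 in same-number pairs (edgeR adjusted p = 0.0247), against an adjusted p of 1 with DESeq2 and of 0.999 with limma. The third, AT5G40450, annotated as an A-kinase anchor-like protein, had 11.4, 8 and 5.44 CPM in TRAP MgD and 9.73, 11.8 and 23.5 CPM in TRAP CK. It had 65.3, 50.5 and 41.6 CPM in Total MgD and 34.4, 54.3 and 40.7 CPM in Total CK, and both RNA types overlapped. Within numbers its log2 ratio was -2.15 and -2.94 under MgD and -1.55 and -1.21 under CK. Its interaction was -1.12 ± 0.54 with no block and -1.13 in same-number pairs (edgeR adjusted p = 0.0277), against an adjusted p of 0.282 with DESeq2 and of 0.586 with limma.

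Counts in gene lists are to be read beside all 19341 tested genes, of which 10159 had a positive and 9182 a negative interaction. Over all genes, 2.18% had a positive interaction with an unadjusted p under 0.05 and 1.77% a negative one. The 32 starch and sucrose genes had a median of -0.04, with 15 positive and none with an unadjusted p under 0.05, and -0.05 in same-number pairs. PWD, a kinase that phosphorylates starch, had 0.71 ± 0.34 and a same-number value of 0.74. For CT-BMY and GBSS1 the estimates were large with no block and near 0 within a number. CT-BMY, a chloroplast beta-amylase of leaf starch breakdown, had 366, 239 and 194 CPM in TRAP MgD (numbers 2, 3 and 4) and 949, 463 and 298 CPM in TRAP CK (numbers 1, 2 and 3). Its total RNA gave 533, 357 and 183 CPM under MgD (numbers 1, 2 and 4) and 433, 258 and 207 CPM under CK (numbers 2, 3 and 4). In both RNA types the values fell from each number to the next. The highest value in each RNA type belonged to the library numbered 1, which TRAP CK and Total MgD hold and the other 2 groups lack. Its interaction was -1.36 ± 0.77 with no block, whereas its log2 ratios within a number were 0.04 and 0.08 under MgD and 0.10 and 0.21 under CK, and the same-number interaction was -0.09. GBSS1, the granule-bound starch synthase that makes amylose, behaved alike, with an interaction of -1.39 ± 0.77 and a same-number value of -0.10. What the number stands for is not given, and its part in these values was not tested beyond the fits named.

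**Figure D3:**
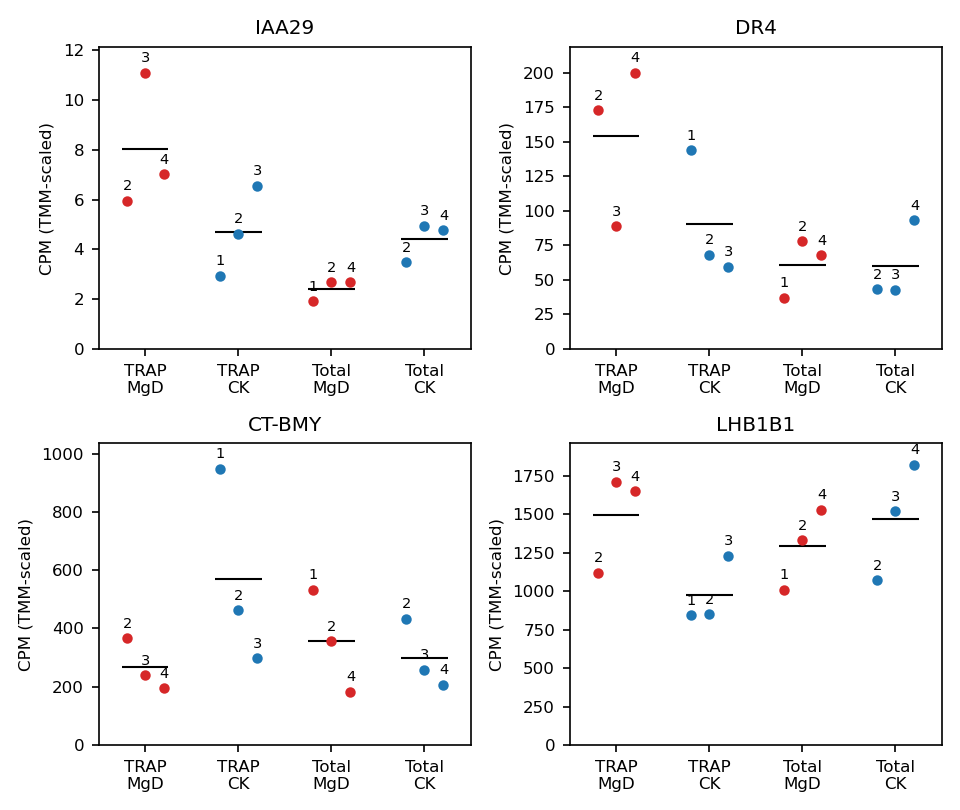
CPM (TMM-scaled) of IAA29, DR4, CT-BMY and LHB1B1 in each of the 12 shoot libraries, for TRAP MgD, TRAP CK, Total MgD and Total CK from left to right, with MgD in red and CK in blue. Each point is a library labelled with its original number, and horizontal lines are group means of 3 libraries. CT-BMY is highest in the libraries numbered 1, at 949 and 533 CPM.

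Magnesium transport genes were followed as a list, and 10 of its 11 entries were measured. Of these, 7 had a positive and 3 a negative interaction, with a median of 0.15 against 0.02 over all genes. It was 0.06 without Shoot TRAP CK replicate 3 and 0.18 in same-number pairs. MHX, a magnesium and proton exchanger of the vacuolar membrane, was the single member with an unadjusted p under 0.05. It had 40.8, 40.2 and 49.3 CPM in TRAP MgD and 38.4, 36.2 and 35.4 CPM in TRAP CK, and 33.1, 33.9 and 35.7 CPM in Total MgD and 36.0, 39.2 and 41.5 CPM in Total CK. Both RNA types were separate between media, higher under MgD in TRAP RNA and lower under MgD in total RNA. Its interaction was 0.43 ± 0.15 (edgeR unadjusted p = 0.00967, adjusted p = 1), with a 95% interval of 0.12 to 0.74, and 0.44 in same-number pairs.

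The MGT genes encode CorA-type magnesium channels. MGT1 had an interaction of 0.51 ± 0.33, and MGT10, of the chloroplast envelope, had 0.17 ± 0.15. Interactions of MGT1 and MGT10 lay within 2 SE of 0. MGT6, known for magnesium uptake when supply is low, had 24.4, 23.5 and 22.8 CPM in TRAP MgD and 20.9, 23.9 and 23.9 CPM in TRAP CK. Its total RNA gave 32.3, 29.4 and 32.2 CPM under MgD and 36.7, 33.4 and 30.2 CPM under CK, so the groups overlapped in both RNA types, and the interaction was 0.14 ± 0.15. MGT2 had -0.04 ± 0.14, MGT3 had 0.09 ± 0.21, MGT4 had -0.09 ± 0.16 and MGT9 had 0.19 ± 0.28. MGT7, near 1 CPM, had -0.47 ± 0.62, and CNGC10, a cyclic nucleotide-gated channel, had 0.23 ± 0.58. For 7 of the 10 genes the 95% interval lay within a 2-fold change, which was not so for MGT1, MGT7 and CNGC10. Within numbers the median log2 ratio of TRAP to total RNA over the list was 0.28 and 0.26 under MgD and -0.02 and -0.01 under CK.

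Genes of the photosystems and light harvesting had mostly positive interactions. Of 48 measured genes, 44 had a positive interaction, against 10159 of all 19341 genes, 5 of them with an unadjusted p under 0.05 and none with a negative one, and the median was 0.21. The median response was 0.10 in TRAP RNA and -0.11 in total RNA. LHB1B1, a major light-harvesting protein of photosystem II, had 1120, 1710 and 1650 CPM in TRAP MgD and 845, 850 and 1230 CPM in TRAP CK. Its total RNA gave 1010, 1330 and 1530 CPM under MgD and 1070, 1520 and 1820 CPM under CK. Both RNA types overlapped, and the interaction was 0.81 ± 0.34 and 0.26 in same-number pairs. PSBY, a small subunit of photosystem II, had 0.46 ± 0.18 and 0.27 in same-number pairs, and LHCB4.2, a minor antenna protein, had 0.42 ± 0.18 and 0.10. Over the list, the median log2 ratio of TRAP to total RNA within a number was -0.18 and 0.03 under MgD and -0.14 and -0.18 under CK. The same-number median of the interaction was 0.01, with 27 of 48 genes positive. Leaving out 1 library at a time moved the median between 0.07, without Shoot TRAP MgD replicate 2, and 0.33, without Shoot TRAP MgD replicate 1. As a share of counts, the list took 10.9%, 14.0% and 13.1% of TRAP MgD libraries and 11.9%, 11.3% and 12.5% of TRAP CK libraries, which overlapped (exact permutation test, two-sided p = 0.5). Its share of total RNA was 12.4%, 12.9% and 13.8% under MgD and 12.5%, 13.8% and 14.6% under CK, which also overlapped (exact permutation test, two-sided p = 0.5). With 3 libraries against 3 this test cannot give a p below 0.1.

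Flavonoid and phenylpropanoid genes had a median of -0.43 over 21 measured genes, of which 13 were negative and none had an unadjusted p under 0.05. The median response was -0.35 in TRAP RNA and 0.14 in total RNA. UGT78D2, which glucosylates flavonols and anthocyanins, had 46.6, 41 and 45.5 CPM in TRAP MgD and 98.5, 58.6 and 46.2 CPM in TRAP CK. Its total RNA gave 57.0, 37.6 and 37.5 CPM under MgD and 47.2, 37.1 and 34.0 CPM under CK. The library numbered 1 was again the highest of each RNA type, and the interaction was -0.77 ± 0.38 with no block and -0.02 in same-number pairs. In the pairs of values that follow, the second is the same-number value. UGT78D1, a flavonol rhamnosyltransferase, had -0.43 ± 0.22 and -0.09. PAL1, the entry enzyme of the phenylpropanoid pathway, had -0.87 ± 0.56 and -0.07, and 4CL3, a 4-coumarate:CoA ligase, had -1.28 ± 0.69 and -0.28. TT8, a regulator of late anthocyanin genes, had at most 1.13 CPM in any library and an interaction of 2.41 ± 1.15, against 0.66. The same-number median of the list was -0.03, with 9 of 21 genes positive. The list took 0.240%, 0.196% and 0.188% of TRAP MgD counts and 0.355%, 0.280% and 0.222% of TRAP CK counts, which overlapped by the lowest CK library (exact permutation test, two-sided p = 0.2).

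Sulfur starvation genes had 13 measured members, 12 of them negative, against 9182 of all 19341 genes. Their median was -0.40, which was -0.19 without Shoot TRAP CK replicate 1. LSU2, of the LOW SULFUR family, was the single one with an unadjusted p under 0.05. It had 21.7, 20.4 and 21.6 CPM in TRAP MgD and 36.6, 24.8 and 16.1 CPM in TRAP CK, and 31.8, 25.7 and 23.0 CPM in Total MgD and 20.8, 15.9 and 20.7 CPM in Total CK. The total RNA groups were separate, higher under MgD, and the TRAP groups overlapped. Its interaction was -0.77 ± 0.34 and -0.31 in same-number pairs, and that of LSU1 was -0.90 ± 0.50 and 0.06. The same-number median of the list was 0.00. Abscisic acid and dehydration genes had 19 of 21 negative, a median of -0.23, which was -0.42 without Shoot TRAP MgD replicate 1, and a same-number median of 0.00. They took 0.66%, 0.665% and 0.68% of TRAP MgD counts and 0.629%, 0.546% and 0.705% of TRAP CK counts, which overlapped (exact permutation test, two-sided p = 0.5). The interaction of their share of counts was -0.05. ABF3, a transcription factor of abscisic acid responses, had -0.60 ± 0.25 and -0.24. ERD10, a dehydrin, had -0.57 ± 0.27 and -0.08, and NCED3, the rate-limiting enzyme of abscisic acid synthesis under drought, had -0.46 ± 0.24 and -0.31.

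Jasmonate genes had the highest median of the lists of nuclear genes, 0.24 over 17 genes with 13 positive, which was -0.07 without Shoot Total CK replicate 2 and 0.01 in same-number pairs. Their median responses were -0.32 in TRAP RNA and -0.36 in total RNA. Iron homeostasis genes had a median of -0.21 with 12 of 20 negative, which was 0.08 without Shoot Total MgD replicate 1 and 0.17 in same-number pairs. None of the genes of either list had an unadjusted p under 0.05.

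Growth regulators gave few further cases. Of 23 measured Aux/IAA repressors 8 were positive, with a median of -0.07, and IAA28 had -0.40 ± 0.19 and -0.19 in same-number pairs. Of 17 PIF and shade growth genes 13 were positive, with a median of 0.19, which was 0.07 without Shoot TRAP CK replicate 1, and a same-number median of -0.02. There, HB-2, a homeobox factor induced by shade, had 0.45 ± 0.21 and 0.12 in same-number pairs, and PIL1, another shade marker, had -0.71 ± 0.36 and -0.74. Of 25 clock genes 7 were positive, with a median of -0.14 and -0.08 in same-number pairs, and TCP11, a TCP transcription factor, was the single one with an unadjusted p under 0.05, at 0.40 ± 0.16 and 0.17 in same-number pairs. Its TRAP values of 73.8 to 80.3 CPM under MgD lay above those of 54.5 to 62.2 CPM under CK.

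Of 14 sugar starvation genes 10 were positive, with a median of 0.15 and -0.07 in same-number pairs. BCAT-2, a branched-chain amino acid transaminase, was the single one with an unadjusted p under 0.05, at -1.08 ± 0.39 and -0.59 in same-number pairs. Of 11 heat shock and chaperone genes 5 were positive and 6 negative, from -1.39 to 0.90, with a median of -0.03 and a same-number median of 0.18. The single one with an unadjusted p under 0.05 was HSP18.2, a small heat shock protein, at 0.90 ± 0.38 and 0.91. Of 17 phosphate and nitrogen genes 10 were negative, with a median of -0.12 and 0.03 in same-number pairs. PHT1;1, named above, and NRT1.5, a nitrate transporter, had an unadjusted p under 0.05, and NRT1.5 had -0.53 ± 0.24 and -0.06 in same-number pairs.

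Genes of the translation machinery, whose efficiency is often regulated as a group, did not shift by much. The 119 measured cytosolic ribosomal protein genes had a median of 0.09, with 88 positive, which was 0.00 without Shoot TRAP MgD replicate 2 and -0.06 in same-number pairs, with 44 positive. By unadjusted p under 0.05, 2 were positive and 1 was negative, AT3G08520 of the L41 family, at -0.34 ± 0.13 and -0.35 in same-number pairs. The positive ones were AT3G16780, at 0.38 ± 0.17 and 0.14, and AT5G47700, at 0.37 ± 0.16 and 0.31. Over all genes, 2.18% were positive and 1.77% negative at this threshold. The log2 ratio of TRAP to total RNA of the list had a median of -0.77 under MgD and -0.86 under CK, and 110 of the 119 genes had an interval of the interaction within a 2-fold change. The list took 1.08%, 1.22% and 1.22% of TRAP MgD counts and 1.06%, 1.2% and 1.17% of TRAP CK counts, which overlapped (exact permutation test, two-sided p = 0.5). The 28 measured translation factor and TOR genes had a median of 0.02, and 26 of them had an interval within 2-fold. Of 18 genes whose leaders hold conserved upstream open reading frames, 8 were positive, with a median of -0.10. VTC5, a GDP-L-galactose phosphorylase of ascorbate synthesis, had -0.50 ± 0.20 there and -0.20 in same-number pairs, and BOR1, a borate exporter, had -0.25 ± 0.17 and 0.00. MHX, given above, belongs to this list too. TRAP values of VTC5 and BOR1 were below CK in every MgD library, while their total RNA overlapped.

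**Figure D4:**
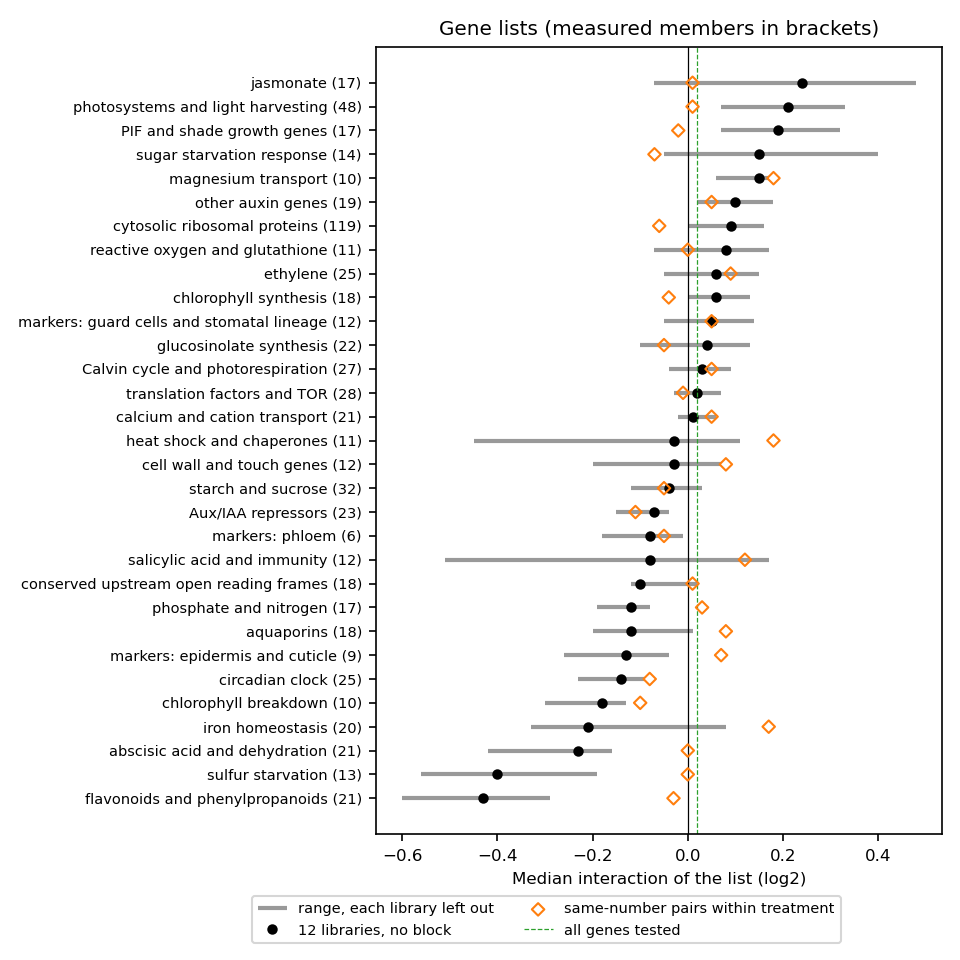
Median interaction (log2) of the measured members of 31 gene lists, with the number of members in brackets. Black points are medians with no block, grey bars the range when each of the 12 libraries is left out in turn, open diamonds the same-number medians, and the green dashed line the median of all tested genes. The medians reach from -0.43 to 0.24 with no block and from -0.11 to 0.18 within numbers.

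Across these 31 lists, which leave out organelle-encoded genes and root markers, 6 had a median of 0.2 or more from 0 with no block, namely jasmonate, photosystems, iron, abscisic acid, sulfur and flavonoid genes, and none had one within numbers, where medians lay between -0.11 and 0.18. With the number as a block over all 12 libraries, medians lay between -0.18 and 0.50, and 2 were 0.2 or more from 0. These were heat shock and chaperone genes at 0.50, against -0.03 with no block, and 12 salicylic acid and immunity genes at 0.39, against -0.08 with no block and 0.12 within numbers. Marker lists of other leaf cell types showed medians of 0.05 for 12 guard cell and stomatal lineage genes, -0.08 for 6 phloem genes and -0.13 for 9 epidermis and cuticle genes. Of the epidermis and cuticle genes, 2 had a negative interaction with an unadjusted p under 0.05 and 1 a positive one. Over all genes these shares were 1.77% and 2.18%. CER2 had -0.79 ± 0.34 and CER3 -0.41 ± 0.17, both in wax synthesis, with same-number values of -0.12 and -0.13. LP1, a lipid transfer protein, had 0.50 ± 0.21 and 0.27 in same-number pairs. Guard cell genes took 0.0248% to 0.0352% of TRAP counts and 0.163% to 0.269% of total counts, in ranges that overlapped between media. Epidermis and cuticle genes overlapped likewise, at 0.464% to 0.496% of TRAP counts and 0.255% to 0.299% of total counts. In the guard cell list, TGG1 and TGG2, with means of 1100 and 786 CPM in Total MgD, made up most of the share there. The TRAP share of the phloem genes was separate between media, at 0.0644%, 0.0594% and 0.0657% under MgD and 0.0671%, 0.0678% and 0.0822% under CK (exact permutation test, two-sided p = 0.1, the smallest it can give). Their share of total RNA overlapped, at 0.0505%, 0.0514% and 0.0495% under MgD and 0.0505%, 0.0591% and 0.0502% under CK (exact permutation test, two-sided p = 0.7). Shares of several lists were tested in this way in each RNA type, with no adjustment for the number of tests. The part of these cell types in the results, such as that of KT2/3, was not tested.

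Transcript features went with small differences at most. In 5 bins of the 15890 genes with a known exon length and an average log2 CPM of at least 1, the median interaction was 0.033 for the shortest and -0.004 for the longest. By GC content of the coding sequence, bin medians reached from -0.016 at the lowest to 0.047 at the highest, the widest range of the 5 features examined. The median SE of a single gene was 0.21 at this abundance. It does not measure the error of a median over many genes, and differences between bins were not tested. Genes with no ATG in the 5' leader had a median of 0.023, and those with 4 or more had 0.015. The slope of log2 CPM on log2 exon length was 0.217 ± 0.1 in TRAP MgD and 0.220 ± 0.057 in TRAP CK (SD, n = 3 each, exact permutation test, two-sided p = 1). For total RNA it was 0.093 ± 0.016 under MgD and 0.072 ± 0.018 under CK (SD, n = 3 each, exact permutation test, two-sided p = 0.3).

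The shoot interaction was set against that of roots, sampled in the same 4 combinations, in 1 model of all 24 libraries. No gene of 21163 passed an adjusted p of 0.05 for the difference (edgeR, 0%), 868 had an unadjusted p under 0.05 against 1058 that 5% would give, and DESeq2 called 0 with 1037. IAA29 had a root interaction of -0.65 ± 0.80, and shoot minus root was 2.25 ± 0.99 (edgeR unadjusted p = 0.0326). UGT76C1 had 0.30 ± 0.19 in roots, and shoot minus root was -0.96 ± 0.27 (unadjusted p = 0.00188). DR4 had 0.51 ± 0.55 in roots, and its shoot minus root was 0.19 ± 0.77. ATCG01020 had -1.39 ± 0.51 in roots, and shoot minus root was 2.42 ± 0.69 (unadjusted p = 0.00212). None of these differences passed adjustment (edgeR adjusted p = 1 for each), so none is called particular to shoots.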

How the data were processed

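Total and TRAP RNA libraries were made with an mRNA kit, per the labels' protocols. Reads were handled with STAR 2.7.6a, Subread 2.0.0, Trimmomatic and FastQC, per the submitters' processing notes, which give no settings here, and no build is stated. The authors deposited whole-number counts per gene, without normalization, and TPM values, which are length-scaled counts. Between 86.9% and 92.6% of counts of 1 to 20 were even in each shoot library, as when both mates of a pair are counted, so counting error is larger than the counts imply. Another 8 samples labelled as removed were not analysed here.

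The interaction was tested with edgeR 4.0.16 (robust glmQLFit and glmQLFTest, R 4.3.3) after filterByExpr and TMM scaling on the 12 shoot libraries, with Benjamini-Hochberg adjustment over all tested genes and a threshold of 0.05. SE is the estimate over the square root of F. Replicates are called independent without mention of separate plants, and all p-values therefore describe the spread among these libraries alone, which may be technical. CPM values are TMM-scaled. Alternatives used DESeq2 1.42.0, limma 3.58.1 on log2(TPM + 1) or log2(TPM + 0.1), other filters and scalings, blocks, and leaving out each library.

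The members, gene lists and tests were chosen with earlier results of these data known. Named genes are the 12 smallest p-values in each direction among genes with a RefSeq symbol and an average log2 CPM of at least 1, genes past the threshold in a fit of all 12 libraries, up to 3 members per list, magnesium transport genes, IAA29, DR4 and RPL18. Symbols, products and features came from RefSeq's TAIR10.1 annotation, which names 27445 of 27655 loci. Of 608 list entries, 17 whose name did not match their locus were dropped. Cytosolic ribosomal proteins were taken by RefSeq product in place of the planned symbol rule, because symbols beginning with RPS also name resistance genes. This change was made after seeing the data. Library numbers come from the submitters' list of library names, and libraries of the same number were taken as paired because the deviations from group means, correlated across genes, had a Pearson r above 0.1 in all 13 such pairs between groups (0.107 to 0.496, and 0.352 to 0.496 in the 4 pairs of the same treatment). In 41 pairs with different numbers r was -0.548 to 0.351, and it was above 0.1 in 10 of them. Some of these share a replicate number in their titles, such as Shoot TRAP CK and Shoot Total MgD replicate 3, at 0.351. An r above 0.1 thus does not single out the original number. The fit was checked on simulated counts with known changes in genes with an average log2 CPM of at least 1. At an adjusted p under 0.05 edgeR recovered 49% of 100 genes changed 2-fold and 89% of 100 changed 4-fold. It also called 9 unchanged genes. Many true 2-fold changes would thus be missed.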

Additional observations from a re-analysis of the deposited data

How the results depend on the processing

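No gene was called for the interaction under 12 alternatives that kept the 12 libraries: DESeq2, limma with pseudocounts of 1 and 0.1, RLE or no TMM scaling, other filters, no robust setting, nuclear genes without RPL18, all 24 libraries, the number as a block, and DESeq2 with the number as a block within treatment. Leaving out 1 library at a time called 0 to 1 genes (ATMG00030, without Shoot TRAP CK replicate 3), with 403 to 1271 unadjusted p-values under 0.05. The shoot minus root comparison gave 0 to 1 (PIL6, lower, without Root TRAP CK replicate 1), and 0 with a replicate block.

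The replicate number of the titles as a block called 6 genes (AT1G70820, AT5G65660, GBSS1, 4CL3, PAL1 and CT-BMY). Titles of the same number had r of -0.435 to 0.496. It was positive in all pairs of replicate 1 (0.122 to 0.338) and of replicate 3 (0.104 to 0.496). Pairs of replicate 2 were mixed (-0.435 to 0.196). Whether title numbers pair samples was not tested further. The original number as a block within treatment called 3, and limma in that layout, chosen after seeing the data, called 4 (AT2G35343, ATCG00630, DR4 and AT3G29140).

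With the original number as a block within treatment, medians moved to 0.07 (0.06 with DESeq2) for epidermis genes, to 0.29 (0.31 with DESeq2, 0.08 with limma) for root markers, to 0.61 for mitochondria-encoded genes with DESeq2, and to -0.08 for chlorophyll synthesis with limma. The root marker median of -0.74 (5 genes) was 0.39 among genes averaging a log2 CPM of 1 or more, 0.19 and 0.06 with limma at pseudocounts of 0.1 and 1, and -1.33 to 0.45 with 1 library left out. The mitochondria-encoded median of 0.33 was -0.23 at that abundance and -0.04 to 0.66 with 1 library left out, and the chloroplast-encoded median of 0.09 was -0.61 to 0.23.

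Reversed estimates were all near 0 or imprecise. MGT2 had 0.06 with the number as a block, and 0.02 (0.01 with DESeq2) with the block within treatment. MGT7 had 0.18 there (0.22 with DESeq2, 0.03 with limma), LSU1 had 0.06 (0.04 with both) and BOR1 had 0.00. With 1 library left out, MGT2 ranged from -0.11 to 0.01, MGT3 from -0.04 to 0.18, MGT9 from -0.09 to 0.31, CNGC10 from -0.50 to 0.49 and RPL18 from -0.17 to 0.01. The cause was not tested.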
